A study of Homo sapiens with 60 samples.

Results

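The nuclear genes for the subunits of the respiratory chain and ATP synthase were followed in HT29 cells treated with herbal extracts. The set was chosen by symbol: protein-coding genes whose symbols begin NDUFA, NDUFB, NDUFC, NDUFS, NDUFV, SDHA to SDHD, UQCR, COX4I, COX5, COX6, COX7, COX8, ATP5F, ATP5M or ATP5P. Of 101 protein-coding genes with such a symbol, 12 assembly factors and 2 read-through transcripts were left out, which gave 87 genes of the 60675 gene IDs in the table. They comprise 37 genes of complex I, 4 of complex II, 9 of complex III, 19 of complex IV and 18 of complex V. NDUFA4 and its paralog NDUFA4L2 are counted with complex IV, of which NDUFA4 is a subunit in spite of its name.

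In the inner mitochondrial membrane, complexes I and II feed electrons from NADH and succinate to ubiquinone, complex III passes them on to cytochrome c, and complex IV hands them to oxygen. Complexes I, III and IV pump protons, and complex V, the ATP synthase, lets the protons flow back to make ATP. Most subunits are encoded in the nucleus and imported, the rest are encoded in mitochondrial DNA (mtDNA), and complex II is nuclear throughout. In colorectal cancer lines such as HT29 these genes are expressed beside an active glycolysis.

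HT29, an established human colorectal adenocarcinoma line, was treated for 24 h with 70% ethanol extracts of 6 herbs (Coptidis Rhizoma, Zizyphi Fructus, Citri Unshius Pericarpium, Cimicifugae Rhizoma, Bupleuri Radix, Aconiti Lateralis Radix Preparata) and of 2 formulas (Yijung-tang and Banhasasim-tang). Each extract was given at 3 doses, written here as high, medium and low. For 6 extracts these are 500, 100 and 20 µg/mL. Coptidis Rhizoma was given at 320, 64 and 12.8 µg/mL and Bupleuri Radix at 310, 62 and 12.4 µg/mL. Every dose of Bupleuri Radix, Cimicifugae Rhizoma, Aconiti Lateralis Radix Preparata and Citri Unshius Pericarpium has 3 libraries, every dose of Yijung-tang, Zizyphi Fructus and Coptidis Rhizoma has 2, and Banhasasim-tang has 1. Vehicle-treated cells gave 3 libraries, and all 60 libraries come from the same line. The vehicle is 0.1% DMSO in the sample labels and 2% in the series design. Nothing in the labels says that replicates came from separate cultures, so p-values measure the spread between these libraries, which may be technical. All libraries carry the same batch letter in their labels. The first part of their sample codes divides them into sets of 2 extracts each, what a set stands for is not stated, and the vehicle has a code of its own. Against vehicle, treatment and set therefore cannot be told apart, whereas the high and low doses of an extract share a set.

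The libraries held 18.1 to 36.7 M counts (M, mega), so that the 3 counts taken as the floor of detection correspond to 0.082 to 0.17 CPM (counts per M counts). The 87 genes took 0.362 to 1.05% of the counts of a library, with a median of 0.8475%. Pseudogenes with matching symbols, 195 in number, held 0.296 to 0.535 counts per 100 counts of the genes themselves. Of 12 colon epithelial markers none was at 0 in any library, and of 12 markers of blood, stromal and endothelial cells 3 to 8 were at 0 in each library. The summed level of the latter was 1160 to 1990 CPM, of which LYZ alone gave 1120 to 1990 CPM. From the low to the high dose of Coptidis Rhizoma, 3 of the 12 epithelial markers rose and 6 fell, where 56.2% of all tested genes passed the test described below. Of the 4 tested markers of other cells none rose and 2 fell, LYZ and PECAM1, and the part of either list in the results below was not tested.

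The highest and the lowest library stood apart from the rest in the summed level of the 87 genes, which is the sum of their CPM after scaling between libraries by the TMM method. Vehicle replicate 1 stood at 10885 CPM, against 9031 and 8797 CPM in vehicle replicates 2 and 3 and at most 9466 CPM in the 57 treated libraries. In this library 77 of the 81 tested genes were the highest of the 3 vehicle libraries, compared with 41.1% of all tested genes. Cytosolic ribosomal protein genes took 7.16% of its counts, against 6.05 and 5.75% in the others. The library of Zizyphi Fructus medium replicate 3 stood at 6395 CPM, the lowest of all, and subunits encoded in mtDNA took 38.8% of its counts. Results are therefore also given without these libraries, as alternatives of which the joint one was chosen after seeing the data.

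**Figure D1:**
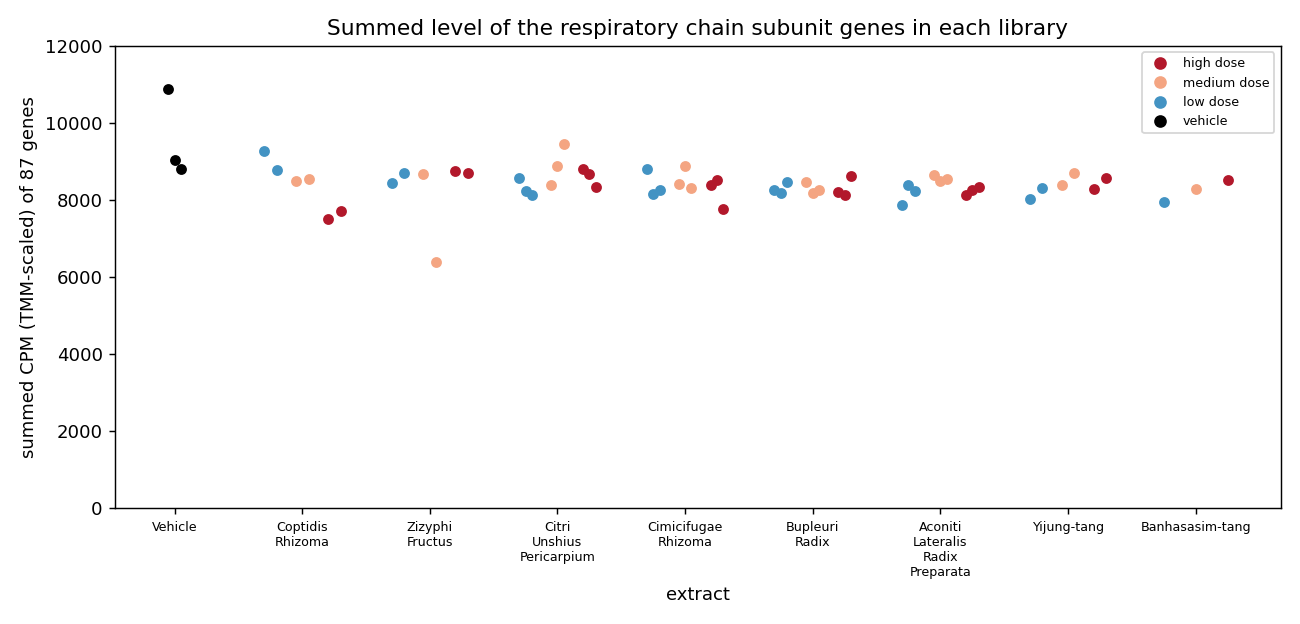
Summed level of the 87 genes (TMM-scaled CPM, axis from 0) in each of the 60 libraries, by extract and dose. Vehicle replicate 1, at 10885 CPM, is the highest point and Zizyphi Fructus medium replicate 3, at 6395 CPM, the lowest, and both high-dose libraries of Coptidis Rhizoma, at 7507 and 7710 CPM, lie below the other treated libraries but that one.

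HT29 cells expressed nearly the whole set, and 5 of the 6 genes below the filter were isoforms of complex IV subunits. Of the 87 genes, 81 reached 0.5 CPM in at least 3 libraries and were tested. The 6 that did not are COX4I2, COX6A2, COX7A1, COX7B2 and COX8C of complex IV and ATP5MGL of complex V. COX6A2 and COX7B2 had 0 counts in all 60 libraries, COX4I2 and COX8C at most 1 count and COX7A1 at most 9 in any library. Their ubiquitous counterparts were abundant in vehicle: COX4I1 at 190 CPM, COX6A1 at 206 CPM, COX7A2 at 116 CPM, COX7B at 117 CPM and COX8A at 272 CPM. COX6A2 and COX7A1 are known as the heart and muscle forms, and COX4I2 as a form of lung and hypoxia. COX6B2, a testis form of COX6B, stood at 0.492 CPM and NDUFA4L2, a hypoxia-inducible paralog of NDUFA4, at 0.961 CPM. These are levels near the floor.

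Among the tested genes, the levels per kilobase of transcript in vehicle spanned about 3 orders of magnitude within complex IV and far less in complexes II and V. In complex I the highest was NDUFB9, an accessory subunit, at 444 ± 55 CPM per kb (SD, n = 3), and the lowest was NDUFV3 at 6.63 ± 0.56. In complex II they ran from SDHC, a membrane anchor, at 304 ± 22, through SDHD at 178 ± 11 and the flavoprotein SDHA at 140 ± 6 to the iron-sulfur protein SDHB at 72.2 ± 8.8, in steps larger than their SD. In complex III, UQCRH stood at 263 ± 34 and UQCRQ at 242 ± 44, which do not differ beyond their spread. UQCRHL, an intronless near-copy of UQCRH whose reads can be confused with it, stood lowest at 4.35 ± 0.53. Complex IV was led by COX8A at 537 ± 110 and COX6B1 at 480 ± 71, within each other's spread. In complex V, ATP5MF, subunit f, stood at 658 ± 91 and ATP5MJ lowest of the tested genes at 58.6 ± 6.3. ATP5MGL, which was below the filter and not tested, stood at 0.0564 ± 0.011. ATP5MF shares its locus with a read-through transcript to PTCD1, which makes its level uncertain.

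**Figure D2:**
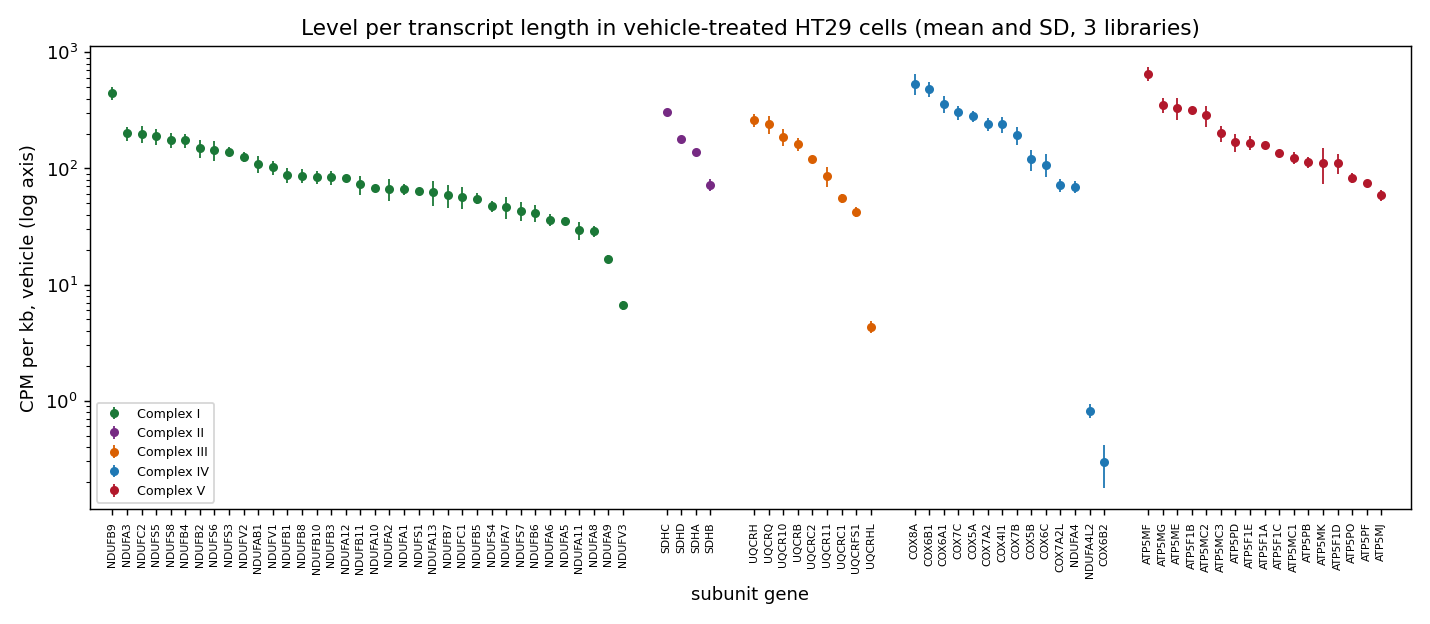
Level per transcript length of 80 of the 81 tested genes in vehicle (CPM per kb, log axis, mean and SD of 3 libraries), ordered within each complex. Within complex IV COX8A stands at 537 and COX6B2 at 0.296 CPM per kb, the widest span of the 5 complexes.

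Coptidis Rhizoma was the extract with which subunit genes changed between doses. From the low to the high dose, 29 of the 81 tested genes fell and 2 rose, by edgeR's quasi-likelihood test with Benjamini-Hochberg adjustment over all 16022 tested genes at a threshold of 0.05. This is 38.3% of the set, below the 56.2% of all tested genes called in the same comparison. The calls among all genes were nearly even, at 4449 higher (27.8%) and 4552 lower (28.4%). The median log2 change was -0.21 over the 81 genes and -0.02 over all tested genes. In bulk RNA, less of a transcript per cell and fewer cells that carry it cannot be told apart, and all levels are relative to the rest of the RNA. With the compared groups alone in the fit 55 of the 81 genes were called, against 64.7% of all tested genes. The smaller share of the set above thus depended on libraries of other groups, which enter the estimate of the spread. Without vehicle replicate 1 and Zizyphi Fructus medium replicate 3 together, 47 fell and 5 rose of 81 genes, 64.2% against a background of 64.7% (32.8% lower, 31.9% higher). By complex, 20 then fell and 3 rose in complex I, 2 of 4 fell in II and 6 of 9 in III. In complex IV 5 fell and 2 rose, and in complex V 14 of 17 fell. The calls by complex below are those with all libraries in the fit, unless stated otherwise.

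The 3 genes for the c subunit of ATP synthase all fell. ATP5MC1, ATP5MC2 and ATP5MC3 encode the same mature protein, which forms the rotating ring in the membrane, and differ in the import signal removed from it. ATP5MC1 stood at 24.8 and 25.1 CPM in the high-dose libraries, 48.5 and 53.3 at the medium dose, 60 and 57.8 at the low dose, and 76.2, 61.2 and 63.4 in vehicle. The high-dose values lie apart from all others here, and also below the 26.7 to 69.6 CPM of the 51 libraries with other extracts. The gene lies at chr17:48892765-48895871 on the + strand (GRCh38, GENCODE 29). The log2 change from low to high dose was -1.24 (SE 0.16, adjusted p = 9.4e-09), or 0.425 times the low-dose level.

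ATP5MC2 stood at 107 and 115 CPM at the high dose, 165 and 170 at the medium, 192 and 181 at the low dose, and 288, 205 and 207 in vehicle. ATP5MC3 stood at 88.4 and 92.8 CPM at the high dose, 135 and 133 at the medium, 150 and 135 at the low dose, and 201, 155 and 153 in vehicle. In both genes high and low doses did not overlap, and vehicle replicate 1 was the highest vehicle library. The changes from low to high dose were -0.75 (SE 0.15, adjusted p = 5.4e-05) for ATP5MC2 and -0.65 (SE 0.17, adjusted p = 0.0013) for ATP5MC3.

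All 17 tested genes of complex V had a log2 change below 0, with a median of -0.29, and 9 of them fell. ATP5F1D, the delta subunit of the central stalk, stood at 36.2 and 36.2 CPM at the high dose against 61.8 and 49.8 at the low dose. Its low-dose libraries differ more from each other than its high-dose libraries do, and the groups do not overlap (log2 change -0.62, SE 0.11, adjusted p = 4.8e-06). ATP5F1A, the alpha subunit of the head, fell from 341 and 336 to 219 and 232 CPM (-0.58, SE 0.13). ATP5F1B, the catalytic beta subunit, did not pass the test, at 494 and 513 against 605 and 574 CPM (-0.23, adjusted p = 0.11). The other genes of this complex that fell were ATP5ME (-0.59), ATP5F1C (-0.31), ATP5PF (-0.29) and ATP5MG (-0.24). Members outside the rule for named genes are named here and below to account for the set, after their values were seen.

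Of complex II, SDHA fell and its partners did not pass with all libraries in the fit. Without vehicle replicate 1 and Zizyphi Fructus medium replicate 3 together, 2 of the 4 genes fell. SDHA, at chr5:218241-256700 on the + strand, encodes the flavoprotein that oxidises succinate. It stood at 129 and 130 CPM at the high dose, 247 and 247 at the medium, 277 and 271 at the low dose, and 308, 294 and 283 in vehicle. The high-dose libraries lie below the 194 to 290 CPM of the 51 libraries with other extracts. The log2 change from low to high dose was -1.08 (SE 0.074, adjusted p = 4.6e-16), or 0.474 times the low-dose level. SDHA has near-identical pseudogene copies, so a part of its reads may be shared with them. The changes of the other subunits were 0.10 (SE 0.095) for SDHB, 0.00 (SE 0.051) for SDHC and -0.22 (SE 0.11, adjusted p = 0.07) for SDHD.

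In complex I, 13 of 37 genes fell and none rose with all libraries in the fit, with a median change of -0.21. Without vehicle replicate 1 and Zizyphi Fructus medium replicate 3 together, 20 fell and 3 rose (62.2%, against 64.7% of all tested genes). NDUFA2, an accessory subunit of the NADH-binding arm, stood at 24.2 and 23.7 CPM at the high dose, 36.4 and 34.4 at the medium, 39.2 and 37.4 at the low dose, and 59.3, 43.6 and 39.8 in vehicle. The high-dose libraries lie below all of these, and the change from low dose was -0.68 (SE 0.18, adjusted p = 0.0011). Among the core subunits, NDUFS8 (-0.56), NDUFV1 (-0.40) and NDUFS7 (-0.38, adjusted p just under the threshold) also fell, while NDUFS1 (0.00), NDUFV2 (-0.09) and NDUFS3 (-0.26) did not pass. Accessory genes that fell were NDUFA3 (-0.62), NDUFA6 (-0.38), NDUFS5 (-0.36), NDUFS6 (-0.36), NDUFA11 (-0.34), NDUFB1 (-0.34), NDUFB7 (-0.31) and NDUFB4 (-0.30). The highest value among the 37 was that of NDUFS4, at 0.32 (adjusted p = 0.12).

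Complex III had 4 of 9 genes lower and none higher. UQCRC2 (chr16:21952660-21983660, + strand), a core protein of the matrix side, stood at 109 and 114 CPM at the high dose against 173 and 172 at the low dose and 167, 165 and 181 in vehicle. Its high-dose libraries lie apart from every other library (-0.63, SE 0.053, adjusted p = 2.8e-13), of which the lowest, Zizyphi Fructus medium replicate 3, stood at 151 CPM. Its partner UQCRC1 changed by -0.57 (SE 0.13), the Rieske protein UQCRFS1 by -0.42 (SE 0.13) and UQCR10 by -0.33 (SE 0.13). The 5 that did not pass lay between -0.28 for UQCRQ and 0.05 for UQCRHL.

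Complex IV differed in direction among its genes: 2 of 14 tested genes fell and 2 rose, with a median change of -0.02. COX6B1 stood at 165 and 166 CPM at the high dose against 246 and 224 at the low dose (-0.50, SE 0.16, adjusted p = 0.0064), and COX7B changed by -0.37 (SE 0.098). COX7A2L (chr2:42333546-42425088, - strand), which encodes a factor that joins complexes III and IV into supercomplexes, stood at 101 and 102 CPM at the high dose. It stood at 83 and 81.3 at the medium dose, 84.6 and 77.8 at the low dose, and 92.3, 74.7 and 73.8 in vehicle. The high-dose libraries lie above all of these and above the 59.5 to 81.7 CPM of the other extracts, with a change from low dose of 0.32 (SE 0.081, adjusted p = 8e-04), or 1.25-fold.

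NDUFA4L2 rose from 1.07 and 0.821 CPM at the low dose to 2.78 and 2.63 at the high dose. The log2 change was 1.52 (SE 0.37, adjusted p = 0.00055), and no library of any other group exceeded 1.76 CPM. Its highest count in any library was 74, so the level stayed low, whereas NDUFA4 stood at 126 and 135 CPM against 147 and 142 (-0.15, adjusted p = 0.55). COX4I1, COX5A, COX5B, COX6A1, COX6C, COX7A2, COX7C and COX8A did not pass, with changes between -0.26 and 0.10. COX6B2, near the floor, had a value of 0.67 (SE 0.45, adjusted p = 0.21), and UQCRH, the other ubiquitous partner of an isoform pair, -0.16 (adjusted p = 0.2).

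**Figure D3:**
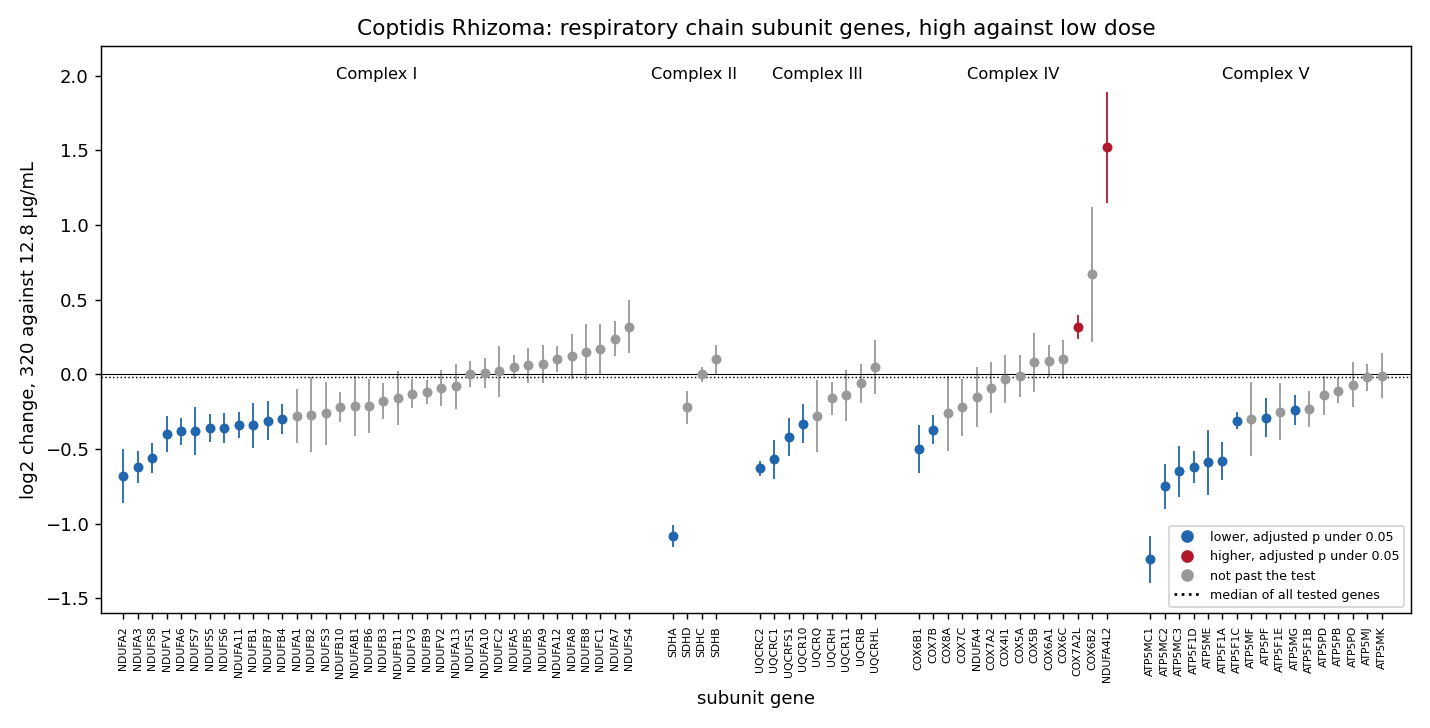
Log2 change of 80 of the 81 tested genes from 12.8 to 320 µg/mL Coptidis Rhizoma, by complex (points, edgeR estimate; bars, SE; dotted line, median of all tested genes). All 17 genes of complex V lie below 0, ATP5MC1 at -1.24 and SDHA at -1.08 are the lowest, and the 2 genes that rose, COX7A2L and NDUFA4L2, belong to complex IV.

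By dose, most of the fall lay between the medium and the high dose. Of the 29 genes that fell, 28 had a medium-dose mean between the low-dose and high-dose means. The medium dose had reached a median of 22.1% of the difference in means between low and high dose. The medium dose was not tested. Across libraries, both high-dose Coptidis Rhizoma libraries lay below all 57 others, Zizyphi Fructus medium replicate 3 left aside, in 25 of the 81 genes (30.9%) and above them in 4. Among all tested genes this held for 24.2% below and 25.5% above, and the 4 genes above are 4.94% of the set. Vehicle replicate 1 is among the 57, and 56 of the 81 genes were higher in it than in all other libraries. In those genes no Coptidis Rhizoma library could lie above the rest, so the shares above cannot be compared.

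**Figure D4:**
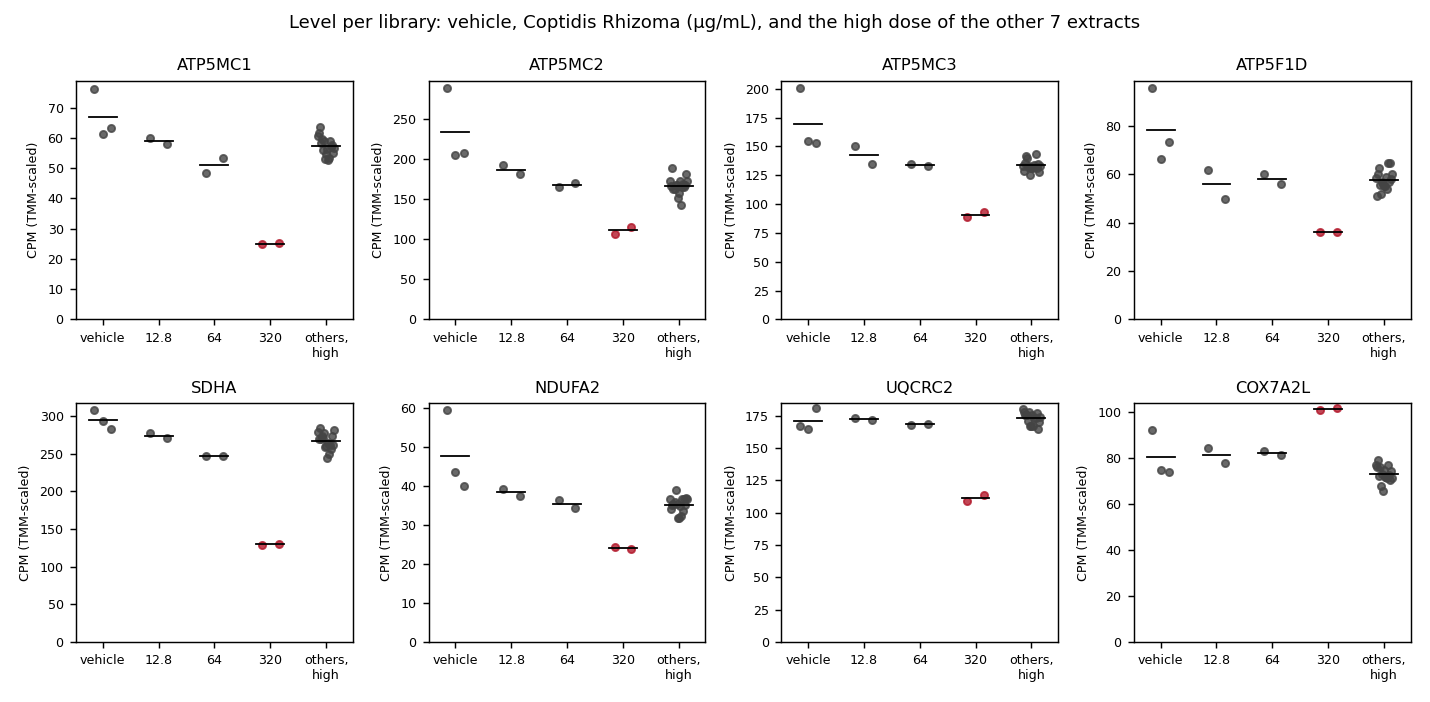
Level (TMM-scaled CPM, axes from 0) of 8 genes in each library of vehicle, of Coptidis Rhizoma at 12.8, 64 and 320 µg/mL, and in the 17 high-dose libraries of the other 7 extracts; lines are means. At 320 µg/mL the 2 libraries (red) lie below all others shown for 7 genes, as ATP5MC1 at 24.8 and 25.1 CPM, and above them for COX7A2L.

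Against vehicle, the high dose of Coptidis Rhizoma had 35 of 81 genes lower and 4 higher (48.1%, against 62.9% of all tested genes, 32% lower and 30.9% higher), with a median of -0.28. Of the 29 genes lower than at the low dose, 28 were among these 35, and COX7A2L and NDUFA4L2 were higher in both comparisons, which share the high-dose libraries. The largest falls were those of ATP5MC1 (-1.42, SE 0.15, adjusted p = 4.2e-11), SDHA (-1.19, SE 0.069), ATP5F1D (-1.11, SE 0.1), ATP5MC2 (-1.07, SE 0.14), NDUFA2 (-0.99, SE 0.16), ATP5MC3 (-0.90, SE 0.16), ATP5ME (-0.80, SE 0.2) and NDUFS8 (-0.76, SE 0.092). By complex, 16 of 37 genes fell in complex I, 2 of 4 in II, 5 of 9 in III, 2 of 14 in IV and 10 of 17 in V. NDUFA5 (0.24, adjusted p = 0.006) and NDUFA12 (0.19, adjusted p = 0.033), both accessory subunits of complex I, were the other genes that rose. NDUFA5 stood at 71 and 71.8 CPM against 64.5, 55.2 and 62.3 in vehicle, and NDUFA12 at 45.7 and 45.8 against 43.5, 38.8 and 38, without overlap in either. Without vehicle replicate 1, 27 fell and 4 rose (38.3%, against 59.7% of all tested genes, 30.3% lower and 29.4% higher). Without Zizyphi Fructus medium replicate 3 as well, 37 fell and 12 rose (60.5%, against 67.4%, 34.1% lower and 33.2% higher). With only vehicle replicate 1 left out, the fall of ATP5F1D was -0.95 and that of ATP5MC2 -0.89.

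In other lists of oxidative metabolism more genes fell than rose with the high dose of Coptidis Rhizoma, and the share called in assembly factors (56.6%) and in carriers and ubiquinone synthesis (60%) was near that of all genes. The lists were chosen with earlier results of these data known, and all counts are from low to high dose, beside the 56.2% of all genes. Of 53 assembly factors, which build the complexes without being part of them, 25 fell and 5 rose (median -0.32). COX18, which inserts a subunit encoded in mtDNA into the membrane, changed by -1.31, and COX19, a copper-handling factor of complex IV, by 1.04. Of 15 genes for cytochrome c, carriers, the ATPase inhibitor and ubiquinone synthesis, 8 fell and 1 rose, with COQ8A at -1.21 and COQ5 at 0.83. Of 13 genes of the tricarboxylic acid cycle 9 fell and none rose, FH and SUCLG2 most, at -1.02 and -0.99. Of 78 mitochondrial ribosomal protein genes 35 fell and 6 rose (median -0.19), whereas 2 of 77 cytosolic ribosomal protein genes fell and 5 rose (median 0.10). Without vehicle replicate 1 and Zizyphi Fructus medium replicate 3 together, 4 cytosolic genes fell and 27 rose (40.3%, against 64.7% of all genes). Of the mitochondrial ribosomal protein genes, 42 then fell and 10 rose (66.7%).

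Glycolysis was lower as well, with 14 of 17 genes lower and 1 higher (median -0.43); PFKL changed by -1.21 and LDHA by -0.91, and SLC2A1, the glucose transporter, by 0.47. Among 11 tested regulators of mitochondrial biogenesis 3 fell and 3 rose. The coactivator PPARGC1B (-1.58), MYC (-0.73) and PPRC1 (-0.41) fell, and the transcription factors YY1 (0.47), NRF1 (0.32) and GABPA (0.23) rose.

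Of the 13 subunits encoded in mtDNA, 6 fell from low to high dose and none rose, MT-ND5 most at -3.70, and against vehicle all 13 fell (median -1.88). These took 2.22 and 2.10% of the counts at the high dose, 4.97 and 4.46% at the low dose and 6.77 to 7.95% in vehicle. Mitochondrial rRNAs took 1.64 and 1.56% at the high, 6.44 and 6.26% at the medium, 10.5 and 9.79% at the low dose and 1.07 to 1.15% in vehicle. Their part in the results on the nuclear genes was not tested.

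Promoters of the genes were compared by the letters they hold. RefSeq promoter windows (build GRCh38.p14), from 250 bases before to 50 after the transcription start, were at hand for 69 of the 87 genes. The following show the site letters of NRF1, a transcription factor known to bind promoters of respiratory chain genes, in 8 genes that fell between the doses of Coptidis Rhizoma. They have the largest changes among the genes with a match in their most upstream window, at least 10 bases from its ends. Each line runs 5′ to 3′ along the strand of the gene, with matches to GCGCNTGCG or its reverse complement CGCANGCGC in capitals and 10 bases to each side.
SDHA (chr5:218145-218173, + strand): gtccgctttgCGCAGGCGCggcgccccca
NDUFA3 (chr19:54102676-54102704, + strand): tgcgcgagtgCGCACGCGCaggctccgaa
ATP5ME (chr4:674476-674504, - strand): gcagcaactgCGCAGGCGCagccgatgat
UQCRC1 (chr3:48609675-48609703, - strand): gtacggtactGCGCCTGCGccgcgaccgc
UQCRFS1 (chr19:29213164-29213192, - strand): gcgcctcctcGCGCCTGCGccgtggttgg
NDUFA6 (chr22:42090778-42090806, - strand): gcccgcggtcCGCACGCGCtgcttgcaaa
NDUFS7 (chr19:1383823-1383851, + strand): ttccggtttcCGCATGCGCtccgagccgc
NDUFS6 (chr5:1801351-1801379, + strand): cagaagccgtGCGCATGCGttagcgctaa

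The window of SDHA held 4 such matches and that of ATP5ME 3. Over the set, 25 of the 69 genes with a window held the NRF1 letters (36.2%), against 9.01% of all 27305 genes with a window. The share was 14 of 25 among genes that fell from low to high dose and 10 of 40 among genes that did not pass. These are counts of letters, not of bound sites. The same split was not counted among all tested genes, nor was a difference tested. The split also rests on the calls with all libraries, where 29 genes fell. Without vehicle replicate 1 and Zizyphi Fructus medium replicate 3 together 47 fell.

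The letters CCGGAAG, the core bound by ETS factors such as GABPA, were in 30.4% of the genes' windows against 12.2% of all, on both strands. The letters AAGATGGC, bound by YY1, were in 17.4% against 3.52%. For the SP1 letters GGGGCGGGG the shares were 15.9 and 18.5%, for the E-box CACGTG 10.1 and 8.77%, and for the ATF4-type letters TGATGNAAT 0 and 1.22%. Overlaps between matches of different motifs were not removed. At least one of the NRF1, ETS and YY1 letters stood in 45 of 69 windows (65.2%), against 21.5% of all genes. Among genes that fell the ETS letters were in 6 of 25 and among those that did not pass in 15 of 40, with the same limits as for NRF1.

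ATP5MC1, the gene with the largest fall, held none of the NRF1, ETS or YY1 letters in its window. It held the cAMP response element letters TGACGTCA, present in the windows of 7.25% of the set and 2.25% of all genes, and an E-box. The 87 bases before its first GENCODE exon, on the + strand at chr17:48892678-48892764, are shown with this element in capitals.
ATP5MC1: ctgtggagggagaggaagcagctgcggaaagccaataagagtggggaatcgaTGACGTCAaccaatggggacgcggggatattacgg

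Between the high and low doses of the other 7 extracts, none of the 81 genes passed the test. The background was 0% of all tested genes for Zizyphi Fructus, 0.144% for Citri Unshius Pericarpium, 0.874% for Cimicifugae Rhizoma, 12.9% for Bupleuri Radix, 2.71% for Aconiti Lateralis Radix Preparata, 0.206% for Yijung-tang and 1.73% for Banhasasim-tang. At an unadjusted p under 0.05 in edgeR there were 0 genes for Zizyphi Fructus, 3 for Citri Unshius Pericarpium, 1 for Cimicifugae Rhizoma, 2 for Bupleuri Radix, 0 for Aconiti Lateralis Radix Preparata, 1 for Yijung-tang and 0 for Banhasasim-tang. Among all tested genes this held for 2.07, 6.55, 7.43, 24, 11, 6.05 and 8.88% in the same order, against at most 3.7% of the set. These unadjusted shares were not computed without Zizyphi Fructus medium replicate 3. That library enters the estimate of the spread, and 54 of the 81 genes lay below all other libraries in it. Whether the set varied less between doses than other genes was not tested. By DESeq2's Wald test the adjusted counts were 0 for 6 of these extracts and 1 for Bupleuri Radix. Without vehicle replicate 1 and Zizyphi Fructus medium replicate 3 together edgeR called 2 genes for Bupleuri Radix (background 24.4%), 2 for Banhasasim-tang (4.68%) and 0 for the other 5 (0 to 7.44%).

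The estimates of these extracts were small. Of the 79 genes with a mean of at least 1 on the log2 CPM scale, all 79 had changes within 0.5 for each of the 7 extracts, and medians of all 81 lay between -0.03 for Cimicifugae Rhizoma and 0.11 for Banhasasim-tang. The 95% intervals of single genes reached from -0.53 to 0.58 for Zizyphi Fructus and from -0.71 to 0.93 for Banhasasim-tang, which has 1 library a dose. Bupleuri Radix, for which 2071 genes in all were called, came nearest with SDHB, at 76.4, 77.3 and 83.4 CPM at the high and 68.6, 61.8 and 73.9 at the low dose. The groups do not overlap, and the change was 0.21 (SE 0.077, adjusted p = 0.061). Banhasasim-tang had the mitochondrial rRNAs at 10.2% of counts at the high dose and 1.11% at the low dose, with a summed level of the 87 genes of 8513 and 7942 CPM.

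The change with Coptidis Rhizoma was set against that of Zizyphi Fructus, the other extract of its library set, by a test of the difference chosen after seeing the data. The 2 extracts were given at different doses with the same ratio of high to low. The test was run with all libraries only, so that Zizyphi Fructus medium replicate 3 enters its estimate of the spread. Of the 81 genes 19 had a lower change with Coptidis Rhizoma and none a higher one, 23.5% against 42.9% of all tested genes (21.8% lower, 21% higher). The differences were largest for ATP5MC1 (-1.30, SE 0.22, adjusted p = 4.2e-06) and SDHA (-1.08, SE 0.1, adjusted p = 1.9e-11). ATP5MC1 ranged from 52.6 to 63.6 CPM over the 17 high-dose libraries of the other 7 extracts and from 49.5 to 61.2 over their 17 low-dose libraries. SDHA ranged from 244 to 284 and from 260 to 290 CPM. For COX7A2L the difference from Zizyphi Fructus did not pass, at 0.27 (SE 0.12, adjusted p = 0.053), nor did that of NDUFA4L2 at 1.21 (SE 0.59, adjusted p = 0.095).

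Against vehicle, the medians of the set were below 0 for the high doses of all 7 other extracts, and how many genes were called depended on single libraries. Here the background among all tested genes is given by direction. Zizyphi Fructus had 3 genes lower (background 2.53%) and 1 higher (4.38%), or 4.94% of the set against 6.9% in all. Citri Unshius Pericarpium had 9 lower (background 5.6%) and 1 higher (7.61%), or 12.3% against 13.2%. Cimicifugae Rhizoma had 22 lower (background 7.7%) and none higher (10.3%), or 27.2% against 18%. Lower genes thus made up nearly all calls in the set, whereas all tested genes were called in both directions. Bupleuri Radix had 21 lower (background 12.7%) and none higher (14.3%), or 25.9% against 27%. Aconiti Lateralis Radix Preparata had 20 lower (background 7.96%) and 1 higher (9.35%), or 25.9% against 17.3%. Yijung-tang had 5 lower (background 2.98%) and none higher (4.66%), or 6.17% against 7.65%. Banhasasim-tang, with 1 library, had 1 lower (background 2.67%) and none higher (4.94%), or 1.23% against 7.6%.

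Fewer genes were called without vehicle replicate 1, both in the set and among all genes. There was 1 gene for Zizyphi Fructus (background 1.31%), 2 for Citri Unshius Pericarpium (2.86%), 2 for Cimicifugae Rhizoma (5.9%), 3 for Bupleuri Radix (16.3%), 3 for Aconiti Lateralis Radix Preparata (7.75%), 0 for Yijung-tang (2.09%) and 0 for Banhasasim-tang (5.04%). The medians moved from between -0.23 and -0.13 to between -0.14 and -0.03. Cytosolic ribosomal protein genes, of which this library also held more, had medians against vehicle of -0.16 to -0.30 for these extracts with all libraries. Without Zizyphi Fructus medium replicate 3 as well, which enters only the estimate of the spread, 8 genes were called for Zizyphi Fructus (background 10.8%), 12 for Citri Unshius Pericarpium (15.5%), 27 for Cimicifugae Rhizoma (19.7%), 26 for Bupleuri Radix (30.4%), 23 for Aconiti Lateralis Radix Preparata (21.5%), 9 for Yijung-tang (10.1%) and 4 for Banhasasim-tang (13.3%). Most of these calls were lower, at 25 for Cimicifugae Rhizoma, 25 for Bupleuri Radix and 22 for Aconiti Lateralis Radix Preparata, least so for Zizyphi Fructus (5 lower, 3 higher). Among all 16022 tested genes 1537, 2355 and 1866 were lower and 1620, 2522 and 1578 higher for the former 3 extracts in this order. Of 77 cytosolic ribosomal protein genes 39, 34 and 33 were lower and 0 higher. All comparisons share the vehicle libraries, so their likeness is not independent.

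**Figure D5:**
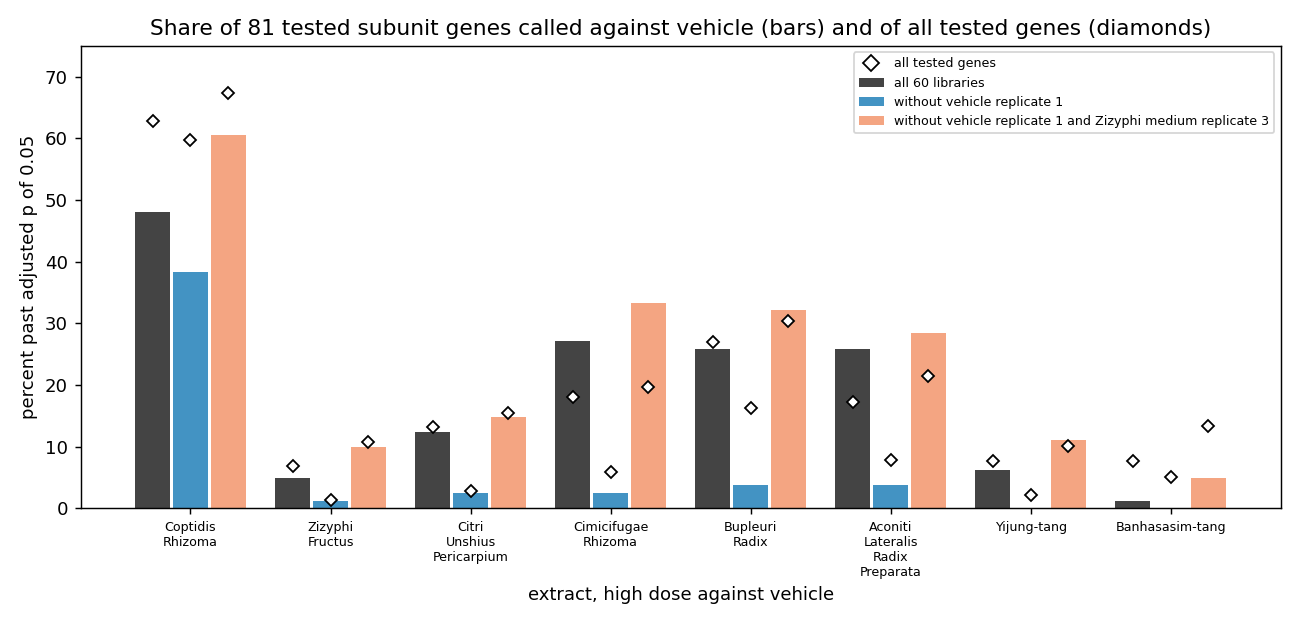
Percent of the 81 tested genes past the test for the high dose of each extract against vehicle (bars), with all 60 libraries, without vehicle replicate 1, and without that library and Zizyphi Fructus medium replicate 3; diamonds give the same for all tested genes. Without vehicle replicate 1, 0 to 3 genes remain called for each extract but Coptidis Rhizoma, at 38.3% of the set.

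ATP5F1D was lower than vehicle with all 8 extracts. It stood at 95.5, 66.3 and 73.2 CPM in vehicle and between 50.9 and 64.5 CPM, with a median of 56.8, in the 17 high-dose libraries of the 7 other extracts, all below the vehicle. Its changes lay between -0.33 (SE 0.096, adjusted p = 0.03) for Yijung-tang and -0.52 (SE 0.097, adjusted p = 0.00099) for Zizyphi Fructus. Without vehicle replicate 1 it was still lower with 5 of the 7, between -0.23 for Bupleuri Radix and -0.35 for Zizyphi Fructus, and did not pass for Yijung-tang and Banhasasim-tang. Between high and low doses it did not pass with any of the 7, with low-dose libraries at 51.8 to 60.6 CPM.

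ATP5MC2 was lower than vehicle with 7 of the 8 extracts, all but Banhasasim-tang, by -0.43 for Citri Unshius Pericarpium to -0.57 for Bupleuri Radix among the 6 besides Coptidis Rhizoma. Its vehicle libraries stood at 288, 205 and 207 CPM and the 17 high-dose libraries of the other extracts at 143 to 189. Of the 7 it passed for Bupleuri Radix alone without vehicle replicate 1, at -0.40 (SE 0.12, adjusted p = 0.023). NDUFA11, a membrane-arm accessory subunit of complex I, and ATP5PB, the peripheral stalk subunit b, were lower with 6 extracts each, Coptidis Rhizoma included. NDUFA2 was lower than vehicle with 5, and its falls in the others ran from -0.40 for Aconiti Lateralis Radix Preparata to -0.55 for Bupleuri Radix. Without vehicle replicate 1, ATP5F1D and ATP5MC2 made up all lower calls of complex V in the 7 other extracts, and ATP5PB passed in none of them. In complex I, 1 gene was then lower with Cimicifugae Rhizoma (background 5.9%), 1 with Bupleuri Radix (16.3%) and none with the other extracts. Zizyphi Fructus medium replicate 3 was in that fit. Without it as well, complex V had 3 to 6 lower genes with each of the 7 but Banhasasim-tang (background in either direction 10.1 to 30.4%). Complex I then had 11 lower with Cimicifugae Rhizoma, 9 with Bupleuri Radix and 6 with Aconiti Lateralis Radix Preparata. It had 3 with Citri Unshius Pericarpium, and 2 each with Zizyphi Fructus and Yijung-tang.

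Among the 4 largest falls of each extract stood further genes, each called lower with 2 to 5 extracts in all. They were NDUFA7 for Zizyphi Fructus (-0.48), COX5A for Citri Unshius Pericarpium (-0.34), ATP5MK for Cimicifugae Rhizoma (-0.48), and ATP5ME (-0.47) and NDUFA13 (-0.40) for Bupleuri Radix. For Aconiti Lateralis Radix Preparata UQCRFS1 (-0.41) and UQCR11 (-0.40) were among the largest, and for Yijung-tang COX6C (-0.40). None of these passed in that extract without vehicle replicate 1, with Zizyphi Fructus medium replicate 3 kept in the fit. Whether the extracts differ in these genes was not tested. COX5A and UQCRFS1 also split by replicate number in the libraries of Citri Unshius Pericarpium and Cimicifugae Rhizoma. There COX5A stood at 141 to 162 CPM in the 6 libraries of replicate 1 and at 109 to 138 in the 12 others, and UQCRFS1 at 133 to 146 and 105 to 120, whereas the vehicle stood at 183, 157 and 150 CPM for COX5A and 163, 139 and 137 for UQCRFS1. With Aconiti Lateralis Radix Preparata UQCRFS1 stood at 110, 111 and 108 CPM at the high dose, without such a split.

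NDUFA5 went the other way. It stood at 64.5, 55.2 and 62.3 CPM in vehicle and at 60.3 to 73.4 CPM in the 17 high-dose libraries of the other extracts, which overlap. It was higher than vehicle with Zizyphi Fructus (0.25, adjusted p = 0.036), Citri Unshius Pericarpium (0.23, adjusted p = 0.021) and Aconiti Lateralis Radix Preparata (0.21, adjusted p = 0.029). Vehicle replicate 1 was the highest vehicle library here also, and without it the values were 0.29 (adjusted p = 0.058), 0.27 (adjusted p = 0.036) and 0.25 (adjusted p = 0.028).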

How the data were processed

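RNA sequencing measured HT29 cells in 60 libraries. Per the labels' protocols, mRNA libraries were made from 1 µg of total RNA with a directional MGI kit and read as 100 bp paired ends. The submitters' processing notes list RSEM 1.3.3, STAR 2.7.3a, Trim Galore 0.6.5, FastQC 0.11.9 and GRCh38 (annotation not given in the sources used here). What the authors deposited is a table of RSEM-type expected counts, unscaled, in which 210 of 270 columns belong to samples not analysed here. The values were rounded, which changed a library's total by at most 0.00022%. Symbols, positions and transcript lengths (median of basic protein-coding transcripts) came from GENCODE 29, which held 94% of the gene IDs, with 2 members matched by older symbols.

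Genes that reached 0.5 CPM in 3 or more libraries entered the test, run with edgeR 4.0.16 under R 4.3.3 (TMM scaling, a quasi-likelihood model with 25 group means, 35 residual degrees of freedom), and DESeq2 1.42.0 was an alternative. SE is the size of the change over the root of its F statistic. A lone library is assumed to vary like the other groups. The method was tested on simulated counts over 15869 genes: for high against low Coptidis Rhizoma recovery was 79.1% at 1.5-fold and 94% at 2-fold, and for Banhasasim-tang 58.2 and 88.1%. In the simulation 67 genes were changed 1.5-fold and 67 2-fold, the same in every high-dose group and all above a mean log2 CPM of 1. Far more genes were called with Coptidis Rhizoma, and changes below 1.5-fold were not simulated.

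The members and lists were chosen with earlier results of these data known. Named members were, for each comparison, up to 4 (Coptidis Rhizoma: 8) called in each direction by largest change, leaving out mean log2 CPM under 1, the isoform groups, and the highest and lowest level per length among the tested genes of each complex. One member, kept in all counts and medians, is not reported here by name. Floors cover counting error only. Alternatives were other size factors, no filter, a replicate block, DESeq2, the compared groups alone, and libraries left out.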

Additional observations from a re-analysis of the deposited data

Results flagged for a closer look

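The change from the low to the high dose differed between Coptidis Rhizoma and Zizyphi Fructus, by edgeR's test of the difference itself, for the following named genes, all lower with Coptidis Rhizoma. On the log2 scale the differences were -1.30 for ATP5MC1, -1.08 for SDHA, -0.66 for NDUFA2 and for UQCRC2, -0.65 for ATP5MC2 and -0.55 for ATP5F1D. ATP5MC3, at -0.57 (adjusted p = 0.054), is not among them, and the doses of the 2 extracts differ. The test was run with all libraries only.

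The library of Zizyphi Fructus medium replicate 3 enters no comparison, and it held signal above that of every control library. ATP5MF stood at 859 CPM in it, against 197 CPM in replicate 2 and at most 246 CPM in the other 59 libraries. UQCRB stood at 199 CPM against at most 129, NDUFA10 at 169 against at most 109, and ATP5PF at 83 against at most 49.9. Most of the set went the other way. Of the 81 tested genes 54 were below and 7 above all other libraries, and the median ratio to replicate 2 was 0.579. NDUFB2 stood at 11.2 CPM against 64.7 in replicate 2 and COX8A at 42.5 against 208. Subunits encoded in mtDNA took 38.8% of the counts, and their part in these values was not tested.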

How the results depend on the processing

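The counts of called genes against vehicle depend on which libraries are in the fit, and no called change of a named gene reversed direction under any alternative run. The share of the set beside that of all tested genes did change sides. With all libraries it was the smaller for Zizyphi Fructus, Citri Unshius Pericarpium, Bupleuri Radix and Yijung-tang against vehicle. Without Zizyphi Fructus medium replicate 3 it was the larger for each of these. Between doses of Coptidis Rhizoma 44 genes were called without the filter on low counts, beside 25.7% of all genes then tested. Without Zizyphi Fructus medium replicate 3, the genes called against vehicle were 27 for Zizyphi Fructus, 43 for Citri Unshius Pericarpium, 60 for Cimicifugae Rhizoma, 50 for Bupleuri Radix, 57 for Aconiti Lateralis Radix Preparata, 34 for Yijung-tang and 17 for Banhasasim-tang, beside 21.2, 29.2, 32.9, 40.1, 32.3, 21.8 and 18.8% of all tested genes, and 2 between doses of Bupleuri Radix (22.6%). Without that library and vehicle replicate 1 together they were 8 for Zizyphi Fructus, 9 for Yijung-tang and 4 for Banhasasim-tang against vehicle, and between doses 52 for Coptidis Rhizoma, 2 for Bupleuri Radix and 2 for Banhasasim-tang. Without the filter on low counts the vehicle counts were 13, 28, 48, 42, 46, 23 and 8 in the order above, beside 3.02, 5.41, 7.46, 11.2, 7.12, 3.5 and 3.15% of a larger number of genes tested. With the compared groups alone they were 0 for Zizyphi Fructus (all genes 0.0749%), Citri Unshius Pericarpium (4.49%), Yijung-tang (0.156%) and Banhasasim-tang (0.7%) and 11 for Cimicifugae Rhizoma (10.7%), and between doses 55 for Coptidis Rhizoma (64.7%) and 4 for Bupleuri Radix (22.7%); Banhasasim-tang could not be fitted alone between doses, with 1 library each. Bupleuri Radix had 1 gene between doses with DESeq2 size factors and 1 with the DESeq2 Wald test, which gave 7 for Zizyphi Fructus against vehicle.

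With one library left out in turn, the counts between doses ranged from 21 to 25 for Coptidis Rhizoma and from 0 to 1 for Bupleuri Radix, and were 0 for the other 5 with replicates; Banhasasim-tang has 1 library a dose. Against vehicle they ranged from 31 to 42 for Coptidis Rhizoma, 0 to 12 for Zizyphi Fructus, 2 to 20 for Citri Unshius Pericarpium, 2 to 34 for Cimicifugae Rhizoma, 3 to 30 for Bupleuri Radix, 3 to 31 for Aconiti Lateralis Radix Preparata, 0 to 17 for Yijung-tang and 0 to 4 for Banhasasim-tang. The highest counts came without vehicle replicate 3 and the lowest without vehicle replicate 1, except for Zizyphi Fructus, whose lowest came without high replicate 3. Without vehicle replicate 1 the share of all tested genes fell too, from 13.2 to 2.86% for Citri Unshius Pericarpium and from 18 to 5.9% for Cimicifugae Rhizoma. For the other left-out libraries, the replicate block and DESeq2 that share is not given, so those counts describe the fits and not the set alone. A high-dose library also moved its own count by over 1.5 times: Zizyphi Fructus replicate 2 (2), Citri Unshius Pericarpium replicates 2 and 3 (3 and 4), Cimicifugae Rhizoma replicate 3 (7), Bupleuri Radix replicates 1 and 2 (9 and 8), Aconiti Lateralis Radix Preparata replicates 1 and 3 (10 and 13) and either of Yijung-tang (0).

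Over all genes the replicate numbers were not taken as pairs (correlations of deviations from -0.18 to 0.23, not above 0.1 in every pair of any comparison), although single genes split by number in some sets. With the replicate number as a block, 30 genes were called between doses of Coptidis Rhizoma and 39 against vehicle, 1 between doses of Bupleuri Radix and 2 for Banhasasim-tang against vehicle.

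For the named genes 712 values under alternatives kept direction and side of the threshold, 95 lost the call and 17 gained one. Depth limits the genes near the floor, NDUFA4L2 and COX6B2 among them.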
